A study of Mus musculus with 11 samples.

Results

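Transcripts of the uncoupling proteins and their nearest named relatives were measured in hearts of mouse embryos at E14.5. The group holds 5 of the 55487 genes counted, namely Ucp1, Ucp2, Ucp3, Slc25a14 (also called Ucp5) and Slc25a27 (also called Ucp4), and it was chosen by the measured rise of Ucp2 between the genotypes, which had been seen to be tight. The difference of Ucp2 between the genotypes is therefore given as a description with no p-value, whereas the other 4 genes were taken in as its relatives. Hearts of 5 Pde2A-/- and 6 Pde2A+/+ embryos were taken from Pde2A+/- intercrosses in the line B6; 129P2-Pde2A<tm1Dgen>, with no drug given and 1 library for a heart. The Pde2A-/- embryos lacked the phosphodiesterase in every tissue from conception, not in the heart alone, and the study describes small livers and anemia in this line. Embryos of both sexes were used, and no litter or batch is stated.

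Uncoupling proteins sit in the inner mitochondrial membrane and belong to the SLC25 family of carriers. Ucp1 lets protons flow back into the matrix and so makes heat in brown fat. Ucp2 is found in many tissues, among them blood and immune cells, and has been linked to lower production of reactive oxygen species and to export of metabolites from the matrix. Ucp3 is best known from skeletal muscle, brown fat and the adult heart, and Slc25a14 and Slc25a27 are best known from the nervous system.

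Ucp2 (ENSMUSG00000033685) lies on the plus strand of chromosome 7 of GRCm38 from 100493337 to 100502020. Ucp3 (ENSMUSG00000032942), on the same strand from 100472990 to 100486432, ends 6.9 kb before Ucp2 begins. The start of the targeted gene Pde2a lies 928.4 kb beyond that of Ucp2. The allele was made in 129P2 DNA, and the DNA around it is passed on with it, so effects of the loss of Pde2A and of the 129P2 sequence beside it cannot be told apart for Ucp2, Ucp3 and their neighbours. The 229 bases of RefSeq promoter windows that lie before both gene starts are shown because the genes stand side by side yet differed widely in level. Capitals mark, on either strand, GGGCGG (the GC box), CCNCNCCC (a pattern that takes in CACC boxes), TGACG (one side of the cAMP response element) and AGGTCA (a core motif of nuclear receptors), in chr7:100493108-100493336 for Ucp2 and chr7:100472741-100472969 for Ucp3, GRCm38.p6, plus strand.
Ucp2: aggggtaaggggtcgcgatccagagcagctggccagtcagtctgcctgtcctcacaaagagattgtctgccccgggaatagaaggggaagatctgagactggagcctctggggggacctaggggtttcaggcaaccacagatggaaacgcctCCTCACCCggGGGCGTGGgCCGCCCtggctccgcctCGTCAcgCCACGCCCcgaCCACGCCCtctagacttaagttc
Ucp3: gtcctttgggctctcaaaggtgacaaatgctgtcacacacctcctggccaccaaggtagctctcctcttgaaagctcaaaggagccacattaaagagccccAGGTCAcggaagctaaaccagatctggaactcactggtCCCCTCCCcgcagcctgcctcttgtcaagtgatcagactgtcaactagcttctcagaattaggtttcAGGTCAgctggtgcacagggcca

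The Ucp2 window had a GC content of 63.3% and that of Ucp3 53.3%, beside a median of 52.0% over 32851 windows. CCNCNCCC occurred 4 times before Ucp2 and 1 time before Ucp3; 42.5% of all windows held it at least once and 8.83% held at least 4. GGGCGG occurred 1 time before Ucp2, as in 29.7% of windows, and TGACG 1 time, as in 15.8%. AGGTCA occurred 2 times before Ucp3 and not before Ucp2, and 13% of windows held it. Neither window held the full cAMP response element TGACGTCA (1.26% of windows), the GATA pattern AGATAA (9.47%) or TATAAA (11.7%). These are matches of letters in a window of fixed length.

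The coding sequences of the members are alike enough that the sharing of reads was examined. Ucp2 and Ucp3 were identical at 75.9% of 917 aligned coding bases, Ucp1 and Ucp2 at 65.7% and Ucp1 and Ucp3 at 66.2%, whereas each pair with Slc25a14 or Slc25a27 lay between 59.5% and 62.8%. The longest run that Ucp2 and Ucp3 share is 24 bases, aatgccattgtcaactgtgctgag, and the 90 coding bases around it are shown with the 19 differing bases in capitals, from coding base 523 in Ucp2 and 520 in Ucp3. A read longer than the shared run cannot match both genes without a mismatch.
Ucp2: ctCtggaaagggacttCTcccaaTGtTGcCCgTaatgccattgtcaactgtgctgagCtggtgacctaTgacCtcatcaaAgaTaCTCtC
Ucp3: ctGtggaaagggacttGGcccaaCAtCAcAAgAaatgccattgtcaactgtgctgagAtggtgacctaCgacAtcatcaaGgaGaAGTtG

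Each library held between 35865537 and 42835382 reads on the sense strand of a gene, and a further 19.6% to 22.4% of reads lay on no gene or could not be placed on 1 gene. Values are normalised read counts scaled to a common library size (CPM), and the comparison covered 24177 genes whose counts summed to 10 or more across the 11 hearts. Pde2a itself had 0 to 2 counts per heart and 7 in all. The annotated gene Gm45837 runs along nearly all of Pde2a on the same strand and had at most 2 counts per heart. STAR leaves reads on more than 1 gene out of the counts, so these low counts do not show whether Pde2a was expressed. Pde2a therefore did not check the genotype labels. The heart Pde2A+/+ 7 stood apart from the rest, since its 12 lymphoid marker genes summed to 98.41 CPM against 2.212 to 3.359 CPM in the other 10 hearts.

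Ucp2 was the abundant member and stood higher in the Pde2A-/- hearts. It reached 223.4 CPM in Pde2A-/- heart A, 276.0 in heart B, 233.6 in heart 14, 216.6 in heart D and 223.6 in heart 15. The Pde2A+/+ hearts ran from 100.4 to 115.3 CPM with a median of 104.5. Every Pde2A-/- heart was above every Pde2A+/+ heart, and the lowest of the former was 1.88 times the highest of the latter. The means were 234.6 ± 23.91 CPM (SD, n = 5) and 105.8 ± 5.624 CPM (SD, n = 6), a ratio of 2.217. The fitted log2 fold change was 1.15 with a standard error of 0.064, and leaving out any 1 heart kept it between 1.08 and 1.18. In these bulk libraries more cells of a type and more RNA per cell cannot be told apart.

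The tightness of Ucp2 had been part of its choice, and its spread within a genotype is a description. Its coefficient of variation was 10.2% among Pde2A-/- and 5.31% among Pde2A+/+ hearts. The biological coefficient of variation in the fit was 8.44%, below the 10.1% of the trend for genes of its abundance, and 20.7% of the genes tested had a smaller one. Heart B held the highest Pde2A-/- value, 276.0 CPM, and the other 4 lay within 216.6 to 233.6 CPM.

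**Figure D1:**
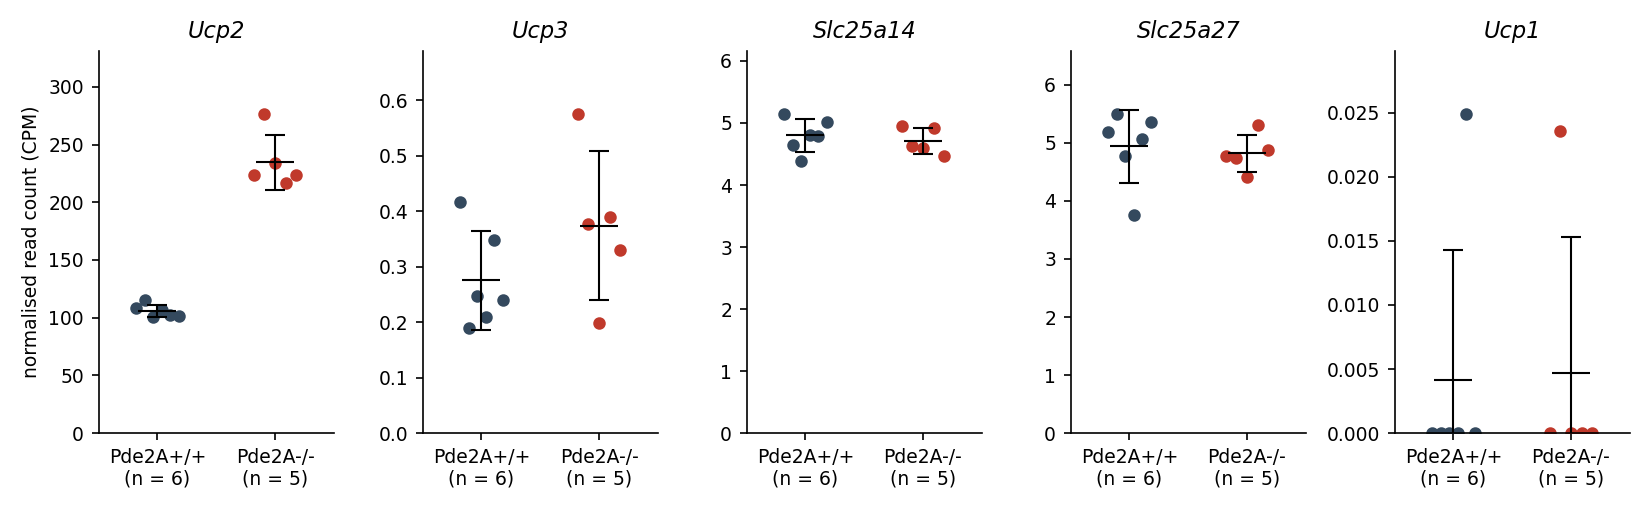
Normalised read counts (CPM, linear axes from 0, a scale for each gene) of the 5 genes in every heart, with points for hearts, horizontal bars for means and vertical bars for the SD. The Ucp2 points of the 5 Pde2A-/- hearts lie between 216.6 and 276.0 CPM, above the 6 Pde2A+/+ points at 100.4 to 115.3 CPM, whereas the points of the other genes overlap between genotypes.

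Replicates are named by letters or by numbers, which may mark different collections. Among hearts named by letters, Ucp2 averaged 238.7 CPM in 3 Pde2A-/- and 102.0 CPM in 2 Pde2A+/+ hearts, a 2.34-fold difference. Among those named by numbers, it averaged 228.6 CPM in 2 and 107.7 CPM in 4 hearts, a 2.12-fold difference. Because every Pde2A-/- heart lay above every Pde2A+/+ heart, any split of the hearts would show a rise. These values are therefore no check on an effect of collection. Reads on the strand opposite to Ucp2 made up 0.332% to 1.31% of the reads on both strands, compared with 4.13% to 4.92% over all genes.

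None of the other members passed the test between the genotypes, and Ucp1 had too few counts to be tested. Of the 4 tested members only Ucp2 separated the hearts by genotype, where 8.49% of all genes tested did so (5.38% with every Pde2A-/- heart above and 3.11% with every one below) and where 8.93% rose and 5.67% fell at an adjusted p under 0.05. The rule had used this separation of Ucp2, and nothing is read from it here.

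Ucp3, the carrier of muscle, was near the limit of detection, although it is the nearest member to Ucp2 on the chromosome. Pde2A-/- hearts A, B, 14, D and 15 held 22, 16, 8, 14 and 12 counts, and Pde2A+/+ hearts held 7 to 16. This was 0.374 ± 0.1349 CPM (SD, n = 5) against 0.2752 ± 0.08843 CPM (SD, n = 6), and the genotypes overlapped. The log2 fold change was 0.43 with a standard error of 0.30 (adjusted p = 0.352, edgeR). Its 95% interval ran from -0.23 to 1.10, so that neither an equal level nor a rise as large as 1 log2 unit lay outside it. The mean was 1.52-fold higher in Pde2A-/- hearts named by letters and 0.996-fold in those named by numbers.

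Ucp1 (ENSMUSG00000031710), the gene of the heat-producing protein of brown fat on chromosome 8 from 83290352 to 83298452, was represented by 2 counts over all libraries. Pde2A-/- heart B and Pde2A+/+ heart H held 1 count each and the other 9 hearts 0, where 3 counts in a heart would amount to at most 0.0836 CPM. Ucp1 was not tested, and a difference was not detectable at this depth. Of the 9 other brown fat markers listed, 6 had counts enough to be tested and 4 stayed under 1 CPM in every heart. Only the mitochondrial protein gene Letmd1 passed the test (16.7% of the 6, beside 8.93% of all genes). It stood at 19.21 ± 1.232 against 15.99 ± 1.098 CPM (SD, n = 5 and n = 6, log2 fold change 0.26, adjusted p = 0.0183, edgeR). This call was lost without Pde2A-/- heart D (adjusted p = 0.053, edgeR) or heart 15 (adjusted p = 0.0512, edgeR).

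Slc25a14 and Slc25a27 were measured at low and similar levels in both genotypes. Slc25a14 (ENSMUSG00000031105), on chromosome X from 48623413 to 48662294, stood at 4.959, 4.626, 4.604, 4.913 and 4.463 CPM in Pde2A-/- hearts A, B, 14, D and 15. In the Pde2A+/+ hearts it ran from 4.384 to 5.137 CPM with a median of 4.802. The log2 fold change was -0.03 with a standard error of 0.083 (adjusted p = 0.874, edgeR) and a 95% interval of -0.21 to 0.16. Because the gene is X-linked, hearts with and without Xist, the transcript of the inactive X chromosome, were set apart. The 3 hearts with Xist at 10 CPM or more (2 of them Pde2A-/-) held 4.604 to 4.959 CPM of Slc25a14 and the other 8 held 4.384 to 5.137, so these ranges overlapped as well.

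Slc25a27 (ENSMUSG00000023912) lies on the minus strand of chromosome 17 from 43641891 to 43667214. It stood at 4.776, 4.744, 4.405, 5.302 and 4.876 CPM in Pde2A-/- hearts A, B, 14, D and 15 and at 3.762 to 5.489 CPM with a median of 5.129 in the Pde2A+/+ hearts. The log2 fold change was -0.04 with a standard error of 0.108 (adjusted p = 0.868, edgeR). Its 95% interval ran from -0.28 to 0.21. The sign of the log2 fold change turned, to 0.03, with Xist as a covariate (adjusted p = 0.874, edgeR).

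Levels between genes were compared per kb of the main annotated transcript. In the Pde2A+/+ hearts Ucp2 stood at 26.54 ± 1.41 CPM per kb (SD, n = 6), Slc25a14 at 2.726 ± 0.1519, Slc25a27 at 1.706 ± 0.2168 and Ucp3 at 0.1124 ± 0.03613. This order held in each of the 11 hearts. The Ucp2 level was 9.73 times that of Slc25a14 and 236 times that of Ucp3. Because the complete coding transcript of Ucp2 in the annotation is long (3988 bases), its level per kb depends on the transcript taken, but the order was unchanged over the union of exons (6989 bases for Ucp2). In the Pde2A-/- hearts Ucp2 rose to 58.84 ± 5.995 CPM per kb (SD, n = 5) and the other 3 stayed at 2.678 ± 0.1213, 1.665 ± 0.1113 and 0.1528 ± 0.0551.

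Among 51 genes of the carrier family, Ucp2 ranked 8th by level per kb in the Pde2A+/+ and 6th in the Pde2A-/- hearts. The leading gene was Slc25a4, the adenine nucleotide carrier of heart and muscle, at 839.5 and 733.9 CPM per kb. The Ucp2 level amounted to 3.16% of it in Pde2A+/+ and 8.02% in Pde2A-/- hearts. Over the union of its exons Ucp2 stood at only 15.14 CPM per kb in Pde2A+/+ and 33.57 in Pde2A-/- hearts. Its ranks and these percentages therefore depend on the transcript taken.

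Most of the other carriers differed little between the genotypes, and errors of log2 fold changes are standard errors from here on. Of the 44 tested, 1 of them a pseudogene, 6 rose (13.6%, beside 8.93% of all genes), 4 fell (9.09%, beside 5.67%) and 34 did not pass. Among protein-coding genes alone 12.3% rose and 7.75% fell, so the shares of the carriers were near these. The gene lists below can be set beside these protein-coding shares as well. Their median log2 fold change was -0.05, near the -0.02 of all genes, and 31 of the 44 lay within 0.25 of 0. The count of falls was the less stable of both: it was 1 without Pde2A-/- heart 14, D or 15 or Pde2A+/+ heart H or E, 2 without Pde2A+/+ heart 7, 6 or 8, and 9 without Pde2A-/- heart B.

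Of the carriers that rose, 2 supply the synthesis of heme. Slc25a37 (mitoferrin 1) brings iron into mitochondria of red cell precursors. It reached 166.3, 309.5, 247.5, 227.6 and 233.7 CPM in Pde2A-/- hearts A, B, 14, D and 15, compared with 38.15 to 93.16 CPM (median 59.06) in Pde2A+/+ hearts, a log2 fold change of 1.996 ± 0.22 (SE, adjusted p = 7.37e-05, edgeR). Its highest heart, B, was also the highest for Ucp2, but its lowest, A, was not the lowest for Ucp2. Slc25a38, which supplies glycine for heme, rose by 0.44 ± 0.08 (adjusted p = 0.00349, edgeR), from 14.06 ± 0.9384 to 19.12 ± 2.242 CPM. Slc25a28 (mitoferrin 2), the form of other cells, fell from 19.1 ± 0.7862 to 16.5 ± 1.195 CPM (log2 fold change -0.21, adjusted p = 0.0331, edgeR), a call that held only without Pde2A-/- heart A or B or Pde2A+/+ heart 6.

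Slc25a21, the carrier of 2-oxoadipate, had the largest log2 fold change of the family, 3.499 ± 0.29 (adjusted p = 9.79e-06, edgeR). It went from 0.07839 to 0.3362 CPM in Pde2A+/+ hearts to 1.592 to 3.444 CPM in Pde2A-/- hearts. Slc25a34, a close relative of the uncoupling proteins, rose by 1.24 ± 0.25 (adjusted p = 0.00719, edgeR) from a mean of 1.113 to 2.629 CPM. Slc25a1, the citrate carrier, rose by 0.35 (adjusted p = 0.0333, edgeR), and Slc25a51, which carries NAD and was named after its values were seen, by 0.20 (adjusted p = 0.0184, edgeR). With single hearts left out, the Slc25a1 call held only without Pde2A-/- heart A or B or Pde2A+/+ heart 7 or 8.

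The abundant carriers of energy metabolism moved little. Slc25a4 fell from 1616 ± 121.7 to 1413 ± 68.85 CPM (log2 fold change -0.19, adjusted p = 0.0409, edgeR), and with single hearts left out this call held only without Pde2A-/- heart B or Pde2A+/+ heart 7 or 11. Slc25a20, which carries acylcarnitine, fell from 71.09 ± 4.526 to 62.23 ± 3.55 CPM (log2 fold change -0.19, adjusted p = 0.0344, edgeR), a call that held only without Pde2A-/- heart A or B or Pde2A+/+ heart 11 or 8. Slc25a26, which brings S-adenosylmethionine into mitochondria, fell from 16.01 ± 1.448 to 12.43 ± 1.205 CPM without overlap (log2 fold change -0.36, adjusted p = 0.0121, edgeR). Slc25a3, the phosphate carrier, and Slc25a5, the second adenine nucleotide carrier, did not pass, with log2 fold changes of -0.04 (adjusted p = 0.625, edgeR) and -0.22 (adjusted p = 0.0767, edgeR). Slc25a5 passed with DESeq2 (adjusted p = 0.0328) and, in edgeR, without Pde2A-/- heart A (0.0499) or B (0.038) or Pde2A+/+ heart 11 (0.0397).

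Of the other close relatives of the uncoupling proteins, only Slc25a34 passed with edgeR over all 11 hearts. Slc25a10, the dicarboxylate carrier, had a log2 fold change of -0.25 (adjusted p = 0.0533, edgeR). It passed with DESeq2 (adjusted p = 0.0185), with filterByExpr (0.037), with Xist as a covariate (0.0208) and without Pde2A-/- heart A (0.0221) or B (0.0253) in edgeR. The log2 fold change of Slc25a11, which carries 2-oxoglutarate, was 0.05 (adjusted p = 0.614, edgeR). Slc25a30 and Slc25a35 had values of 0.16 (adjusted p = 0.167, edgeR) and 0.27 (adjusted p = 0.362, edgeR).

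**Figure D2:**
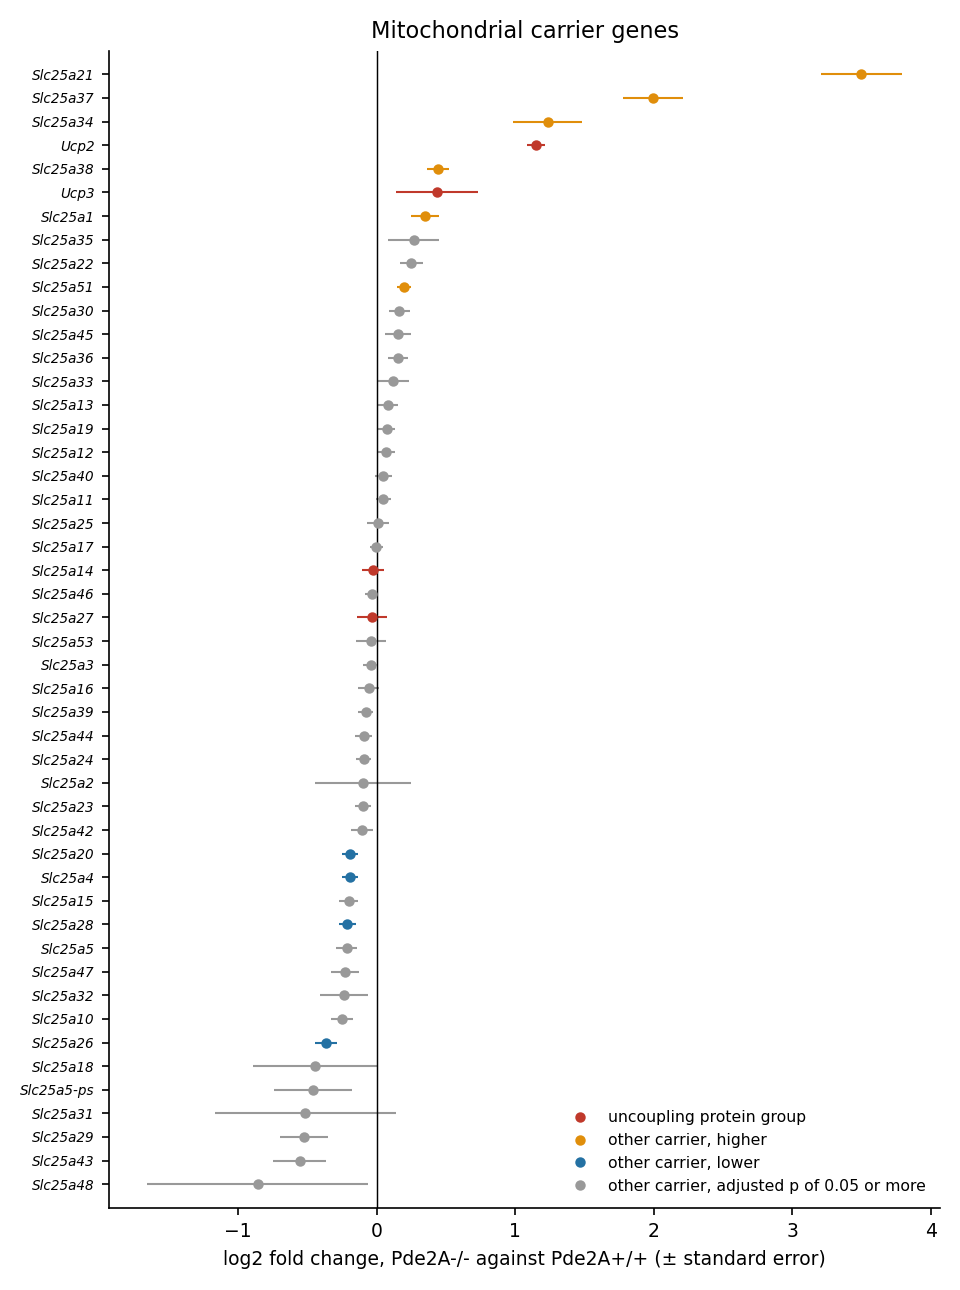
Log2 fold changes of Pde2A-/- against Pde2A+/+ hearts for the tested genes of the mitochondrial carrier family, in order of size, with horizontal bars for the standard error (5 and 6 hearts). Ucp2 stands at 1.15 behind Slc25a21, Slc25a37 and Slc25a34, whereas Slc25a14 and Slc25a27 lie close to 0.

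Genes that regulate the uncoupling protein genes were examined next, from a list of 19 nuclear receptors, co-activators and other factors. Of these, 7 rose (36.8%, beside 8.93% of all genes), none fell and 12 did not pass, with a median log2 fold change of 0.14. The 7 were the fatty acid receptors Ppara, Ppard and Pparg, their co-activators Ppargc1a and Ppargc1b, and the factors Foxo1 and Cebpb. Only Ppard and Foxo1 of the 19 separated the genotypes in every heart, where 8.49% of all genes tested did so.

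Ppara and Ppargc1a differed among the Pde2A-/- hearts. Ppara stood at 7.882, 7.907, 14.36, 16.63 and 18.15 CPM in Pde2A-/- hearts A, B, 14, D and 15, and at 6.532 to 8.332 CPM in Pde2A+/+ hearts (log2 fold change 0.83 ± 0.21, adjusted p = 0.0199, edgeR). Ppargc1a stood at 127.1, 118.4, 184.2, 224.3 and 276.4 CPM in the same hearts, and at 100.7 to 153.0 CPM in Pde2A+/+ hearts (log2 fold change 0.62 ± 0.19, adjusted p = 0.0495, edgeR). Pde2A-/- hearts A and B thus lay within the Pde2A+/+ range for both genes, while hearts 14, D and 15 lay above it. Ucp2 stood at 223.4 and 276.0 CPM in hearts A and B and at 233.6, 216.6 and 223.6 CPM in hearts 14, D and 15. It had been chosen for its tight rise, and a relation between these genes and Ucp2 was not tested.

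Ppard was also highest in heart 15 and low in hearts A and B, with 27.32, 31.3, 42.53, 40.33 and 54.38 CPM in Pde2A-/- hearts A, B, 14, D and 15 against 23.51 to 26.42 CPM in Pde2A+/+ hearts (log2 fold change 0.64 ± 0.14, adjusted p = 0.00969, edgeR). Pparg was at most 4.573 CPM and rose by 0.70 ± 0.18 (adjusted p = 0.021, edgeR). Cebpb rose by 0.63 and Ppargc1b by 0.54 (adjusted p = 0.0285 and 0.0459, edgeR). Foxo1 rose from 55.47 ± 2.716 to 67.5 ± 4.783 CPM (log2 fold change 0.28, adjusted p = 0.00538, edgeR). Without Pde2A-/- heart 14, D or 15 only 2 of the 19 passed, and without Pde2A+/+ heart 7, 6 or 8 only 4 did. The Ppara call was among those lost (adjusted p = 0.0526, 0.0631 and 0.0578 without Pde2A-/- hearts 14, D and 15 in turn, edgeR), as was that of Pparg (adjusted p = 0.0584, 0.0527 and 0.0605, edgeR).

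Known targets of the PPAR receptors passed at rates near those of all genes. Of 17 genes, 2 rose (11.8%, beside 8.93%), 1 fell (5.88%, beside 5.67%) and 14 did not pass. Their median log2 fold change was 0.12, beside -0.02 of all genes, and 14 of the 17 lay above 0. Lpl, the lipase that releases fatty acids from lipoproteins, stood at 333.9 to 576.6 CPM in Pde2A-/- and 261.2 to 318.8 CPM in Pde2A+/+ hearts (log2 fold change 0.65 ± 0.12, adjusted p = 0.0037, edgeR). Plin2, a coat protein of lipid droplets, rose by 0.29 ± 0.06 (adjusted p = 0.00882, edgeR). Acadm, an enzyme of fatty acid oxidation, fell by 0.27 ± 0.07 on the log2 scale (adjusted p = 0.0231, edgeR). Pdk4, a sensitive target in heart, had a log2 fold change of 0.38 (adjusted p = 0.111, edgeR), and was named after its values were seen. The count of rises was 4 without Pde2A-/- heart A or B.

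**Figure D3:**
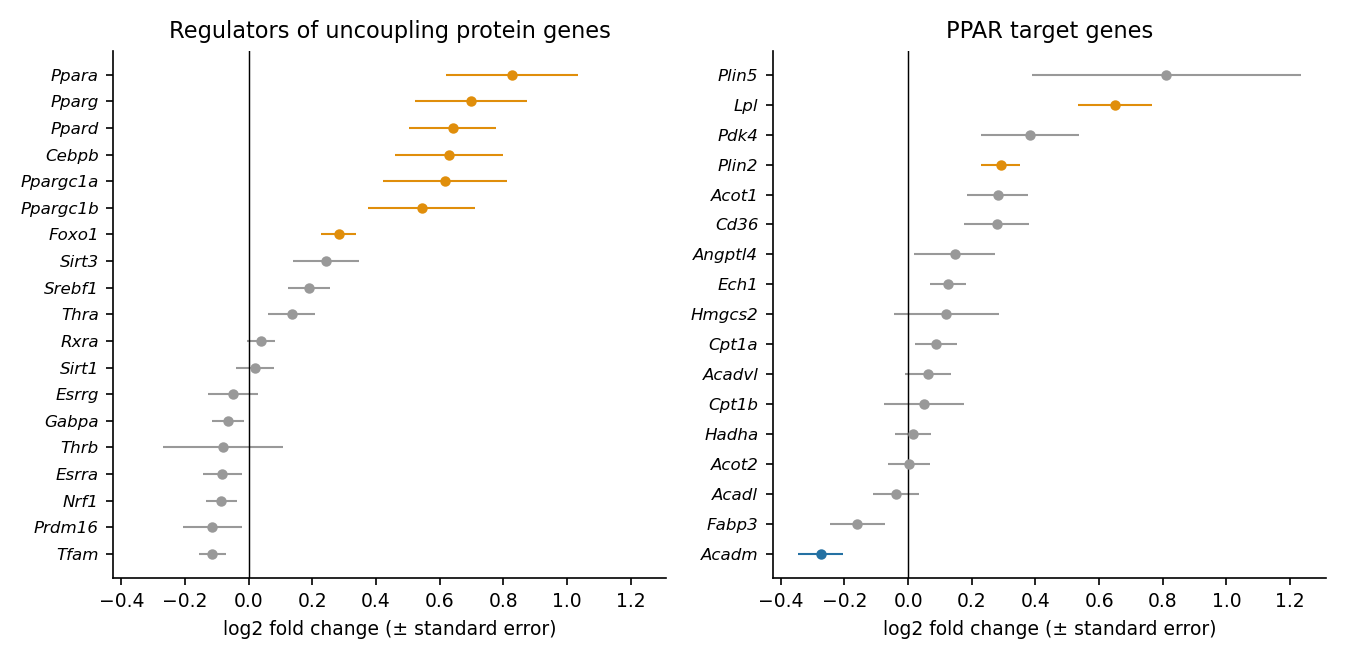
Log2 fold changes of Pde2A-/- against Pde2A+/+ hearts for 19 regulators of uncoupling protein genes and 17 target genes of the PPAR receptors, with bars for the standard error (5 and 6 hearts). Orange points rose and blue points fell at an adjusted p under 0.05, which 7 of the regulators and 3 of the targets passed.

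The surroundings of Ucp2 and Ucp3 were then read out, because both lie near the targeted gene. Within 1 Mb of the start of Ucp2, 42 genes other than the members were tested. Of these, 9 rose (21.4%, beside 8.93% of all genes) and 3 fell (7.14%, beside 5.67%), with a median log2 fold change of 0.12. Among the 29 protein-coding ones, 7 rose (24.1%, beside 12.3% of all protein-coding genes tested), 3 fell (10.3%, beside 7.75%) and 19 did not pass.

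Of the genes directly beside the pair, an antisense transcript rose and 2 protein-coding genes did not pass. No difference between their fold changes and that of Ucp2 was tested. C2cd3, a protein of the cilium base on the Ucp3 side, stood at 56.81 ± 2.342 against 53.38 ± 2.571 CPM (log2 fold change 0.09, adjusted p = 0.217, edgeR). Dnajb13, a protein of cilia and sperm tails whose end meets that of Ucp2 on the other strand, had 1 to 3 counts per heart in both genotypes, so that a difference was not detectable at this depth. Its log2 fold change of -0.30 (adjusted p = 0.762, edgeR) turned to 0.53 with reads of both strands (adjusted p = 0.379, edgeR). Gm10603, a noncoding transcript on the minus strand that runs across the end of C2cd3 and the start of Ucp3, had 28 to 62 counts in Pde2A-/- and 6 to 11 in Pde2A+/+ hearts, or 1.232 ± 0.2902 against 0.1978 ± 0.03826 CPM (log2 fold change 2.62 ± 0.22, adjusted p = 9.7e-06, edgeR).

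Farther away, Mrpl48, a protein of the mitochondrial ribosome 115 kb from Ucp2, fell from 38.51 ± 1.332 to 23.76 ± 1.867 CPM without overlap (log2 fold change -0.70 ± 0.06, adjusted p = 7.61e-06, edgeR). Between it and Ucp2, Coa4, an assembly factor of cytochrome c oxidase, rose from 9.419 ± 0.4676 to 12.22 ± 1.029 CPM (0.37 ± 0.07, adjusted p = 0.00512, edgeR). Thus 2 adjacent protein-coding genes of mitochondrial proteins moved in opposite directions. Kcne3, an accessory subunit of potassium channels, had the largest fold of the protein-coding ones, 1.62 ± 0.33 on the log2 scale (adjusted p = 0.008, edgeR), but ran from 6.472 to 31.57 CPM within the Pde2A-/- hearts and overlapped the Pde2A+/+ range of 3.818 to 6.571.

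Arrb1, which encodes beta-arrestin 1 and uncouples receptors from their G proteins, rose from 69.8 ± 4.187 to 113.9 ± 13.88 CPM (0.71 ± 0.07, adjusted p = 5.28e-05, edgeR). P2ry6, a receptor for UDP, rose by 0.88 ± 0.12 (adjusted p = 0.000585, edgeR). The sialidase gene Neu3 rose by 0.72 and Tpbgl by 0.65 (adjusted p = 0.00304 and 0.0111, edgeR), whereas Pold3, a subunit of DNA polymerase delta, fell by 0.27 on the log2 scale (adjusted p = 0.00966, edgeR). The remaining calls, named after their values were seen, were Ppme1, with a log2 fold change of 0.52, Lipt2, with -0.41, and the noncoding Gm35082, which had 0 counts in each Pde2A+/+ heart and 151 to 305 in the Pde2A-/- hearts.

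**Figure D4:**
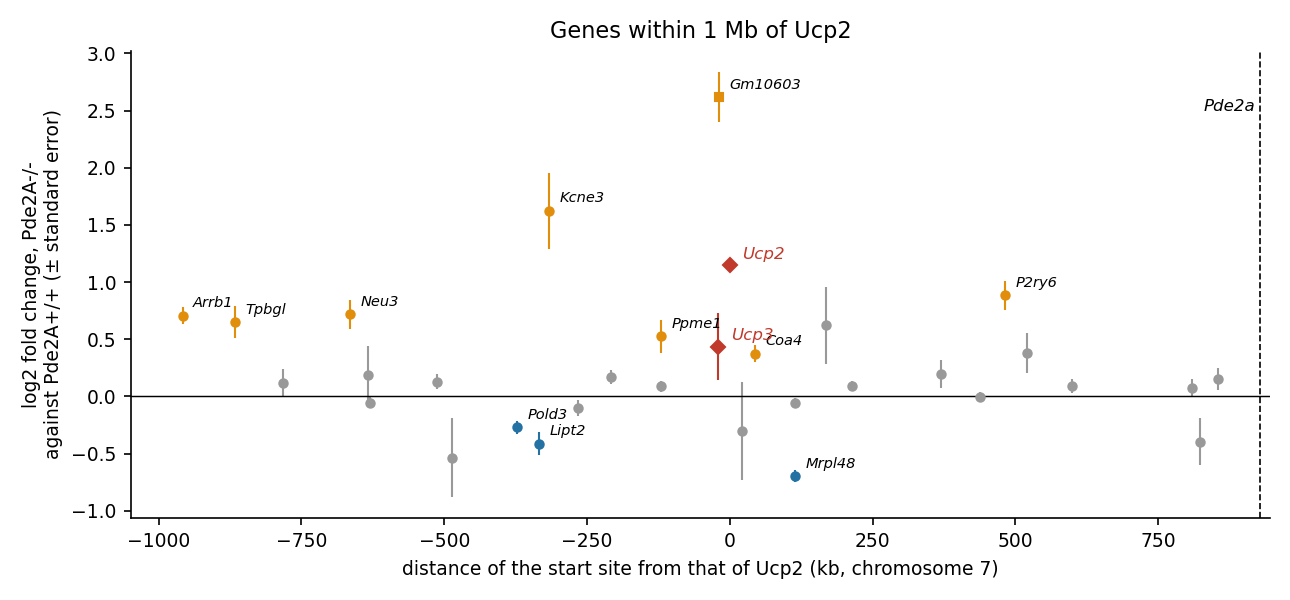
Log2 fold changes with standard errors (5 and 6 hearts) of the tested protein-coding genes within 1 Mb of Ucp2 and of the antisense transcript Gm10603 (square), against the distance of each start from that of Ucp2 in kb. Orange points rose, blue points fell, grey points did not pass and red diamonds are Ucp2 and Ucp3; a dashed line marks Pde2a at 928.4 kb.

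Whole hearts hold many cell types. Markers of cells that are known to express Ucp2 differed between the genotypes. Of 17 erythroid genes tested, 16 rose (94.1%, beside 8.93% of all genes) and none fell, with a median log2 fold change of 2.81. Their summed level was 769.4 to 1465 CPM in Pde2A-/- and 228.6 to 678.2 CPM in Pde2A+/+ hearts. Alas2, named after its values were seen, was the gene that did not pass and lay lower in Pde2A-/- hearts. It stood at 124.3 ± 25.75 against 189.0 ± 103.5 CPM (log2 fold change -0.60, adjusted p = 0.221, edgeR). Its Pde2A+/+ mean was the highest of the list, so it weighs most in the Pde2A+/+ sums. Hemgn, a nuclear protein of red cell precursors, rose from 1.543 ± 1.026 to 47.91 ± 11.55 CPM, and Car1, a carbonic anhydrase, had the largest fitted log2 fold change of the list, 5.89, from near 0 in the Pde2A+/+ hearts. Of 22 macrophage genes, 19 rose (86.4%, beside 8.93%), with a median of 0.92, and their sum was 411.1 to 530.9 CPM against 207.3 to 307.3 CPM. Fcgr3, an antibody receptor, rose by 1.43 and F13a1, a coagulation factor subunit, by 1.30 on the log2 scale. No marker of either list was at 0 in all hearts, and the part of these cells in the Ucp2 difference was not tested.

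The erythroid sum, in which Alas2 weighs most in Pde2A+/+ hearts, and Ucp2 were set side by side in single hearts. Pde2A+/+ heart 11 had the highest values of its genotype in both, 678.2 and 115.3 CPM, and heart 6 the lowest in both, 228.6 and 100.4 CPM. Heart B of the Pde2A-/- group was highest in both, 1465 and 276.0 CPM. Pde2A-/- heart A had the lowest erythroid sum of its genotype, 769.4 CPM, and the second-lowest Ucp2, 223.4 CPM. The lowest Ucp2 of that genotype, 216.6 CPM in heart D, went with an erythroid sum of 1126 CPM. Pde2A+/+ heart H had the second-highest erythroid sum of its genotype, 512.4 CPM, with 102.7 CPM of Ucp2. For macrophages, Pde2A+/+ heart E had the highest sum of its genotype, 307.3 CPM, with 101.4 CPM of Ucp2, and Pde2A-/- heart A the lowest of its own, 411.1 CPM.

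**Figure D5:**
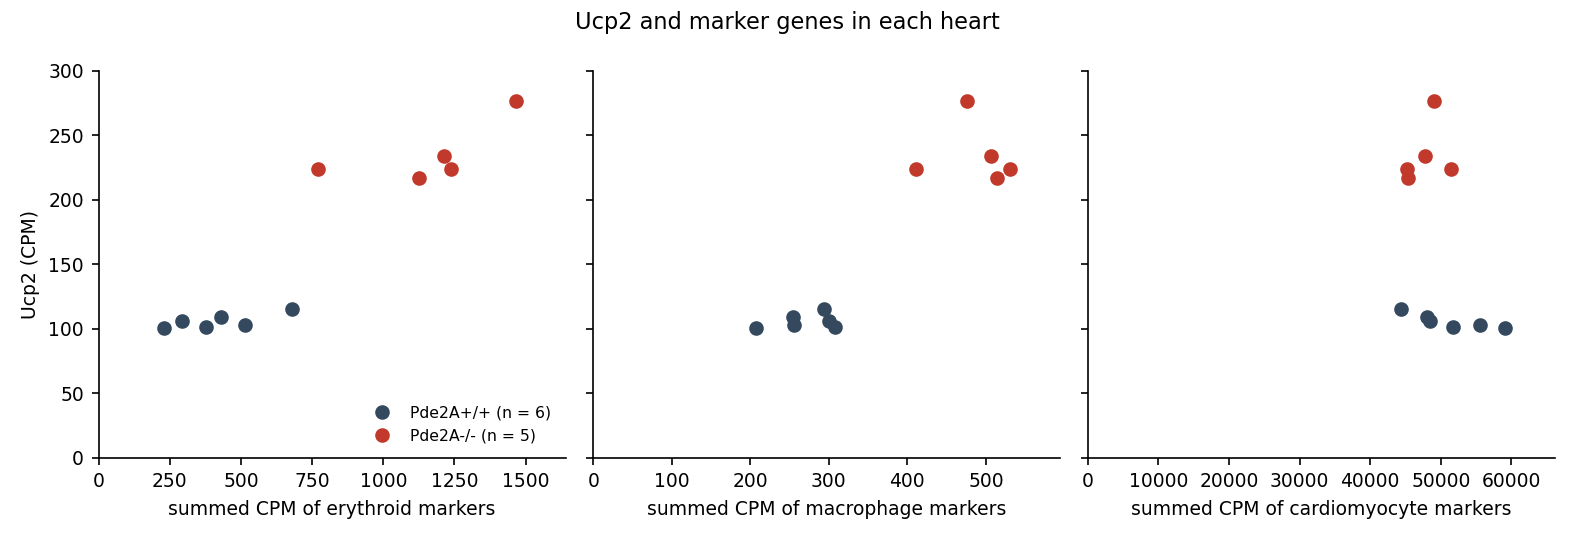
Ucp2 in CPM against the summed CPM of erythroid, macrophage and cardiomyocyte marker genes, with 1 point per heart (6 Pde2A+/+, 5 Pde2A-/-). The genotypes lie apart along the erythroid and macrophage axes, with Pde2A-/- heart A at 769.4 and Pde2A+/+ heart 11 at 678.2 CPM of erythroid markers, and overlap along the cardiomyocyte axis.

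Within the 6 Pde2A+/+ hearts, whose small spread in Ucp2 had been part of its choice, Ucp2 was correlated with 4 marker lists, each as the mean log2 CPM of its genes. With erythroid markers Pearson's r was 0.52 (exact permutation p = 0.293) and Spearman's rho 0.486 (exact permutation p = 0.356). With macrophage markers r was 0.369 and rho 0.371 (exact permutation p = 0.471 and 0.497). With cardiomyocyte markers r was -0.846 and rho -0.943 (exact permutation p = 0.0319 and 0.0167), and with endothelial markers r was -0.764 and rho -0.829 (exact permutation p = 0.0778 and 0.0583). After adjustment over the 4 lists none passed in these exact permutation tests: the adjusted p for r and rho were 0.128 and 0.0668 for cardiomyocyte, 0.156 and 0.117 for endothelial, 0.391 and 0.475 for erythroid and 0.471 and 0.497 for macrophage markers. Without the 2 hearts farthest from the median of each list, r was 0.492 for erythroid, 0.627 for macrophage, -0.918 for cardiomyocyte and -0.897 for endothelial markers over 4 hearts. The summed CPM of the erythroid markers, in which Alas2 weighs most in these hearts, gave an r of 0.69 and a rho of 0.714 over the 6 hearts (exact permutation p = 0.125 and 0.136, adjusted p = 0.167 and 0.181). This r turned to -0.221 without the 2 farthest hearts. Leaving out the 2 farthest hearts narrows the range of the list by design and leaves 4 hearts, so nothing is concluded from this turn. The choice of Ucp2 had used its values in these hearts, so no conclusion is drawn from the correlations.

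Cardiomyocyte markers, which check the tissue, summed to 45160 to 51380 CPM in Pde2A-/- and 44420 to 59050 CPM in Pde2A+/+ hearts, with 1 of 18 higher (5.56%, beside 8.93%), 6 lower (33.3%, beside 5.67%) and a median log2 fold change of -0.23. Tcap, of the sarcomere, fell by 0.88 on the log2 scale, and Nppa, the atrial natriuretic peptide, rose by 0.87. Endothelial markers gave 5 of 14 higher (35.7%, beside 8.93%) and 1 lower (7.14%, beside 5.67%) with a median of 0.19 and sums of 1996 to 2247 against 1576 to 1871 CPM, led by Cldn5, a tight junction protein that fell by 0.79, and Flt1, a VEGF receptor that rose by 0.72.

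Of 11 neuronal genes only Gap43, of growing axons, rose (0.33 on the log2 scale; 9.09% of the list, beside 8.93%), with a list median of 0.11 and sums of 39.62 to 57.47 against 33.28 to 52.61 CPM. Of 12 skeletal muscle genes only Tnnt3, of fast fibres, rose (1.36 on the log2 scale; 8.33%, beside 8.93%), with a median of 0.89 and sums of 423.7 to 766.1 against 368.1 to 743.6 CPM. The skeletal muscle sum was carried by Ckm, a creatine kinase that heart muscle also expresses, at means of 506.9 and 518.8 CPM, and Ckm was named after its values were seen. Gap43 lost its call without Pde2A-/- heart 14 or 15 or Pde2A+/+ heart E, and Tnnt3 kept its own only without Pde2A-/- heart A or Pde2A+/+ heart 8. No lymphoid gene of the 11 tested passed, and their median of -4.18 rested on Pde2A+/+ heart 7. Ucp2 stood at 108.8 CPM in that heart, within the range of the others.

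Genes with the pattern most like that of Ucp2 were sought over the 11 hearts by the root mean square difference of log2 CPM, centred on the Pde2A+/+ mean, among 14023 genes of at least 1 CPM. Among the closest were Pik3ap1, an adaptor of PI3-kinase in immune cells, at a difference of 0.139, Slc43a1, an amino acid transporter, at 0.158, and Syt14, a synaptotagmin, at 0.174, where the median gene lay at 0.796. Pik3ap1 stood at 6.994 to 9.394 CPM in Pde2A-/- and 3.316 to 4.37 CPM in Pde2A+/+ hearts, Slc43a1 at 22.65 to 34.16 against 11.08 to 15.78 CPM, and Syt14 at 7.852 to 9.965 against 3.48 to 5.082 CPM. The search for this pattern fixed the direction of these genes.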

How the data were processed

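RNA of 11 hearts (5 Pde2A-/-, 6 Pde2A+/+) was sequenced single-end from stranded mRNA libraries. Reads were placed on GRCm38 by the authors with STAR (version and annotation not given in the sources used here), who deposited raw counts per gene for each heart, without normalisation. Of the 3 count columns, that with the larger strand total was used. STAR leaves reads on more than 1 gene out of these counts. Identifiers were matched to GENCODE M21 (55227 of 55487), whose main transcripts gave the lengths, and promoter windows came from RefSeq.

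The 24177 genes whose counts summed to 10 or more were tested for genotype with the quasi-likelihood test of edgeR 4.0.16 in R 4.3.3, with TMM library sizes and Benjamini-Hochberg adjustment over all of them, called at 0.05. Intervals of 95% used the standard error on 9 degrees of freedom. Precision rests on the spread between hearts, which may share litters, and log2 CPM used a prior count of 2. Correlations used SciPy 1.17.1. On simulated data for this comparison, with 200 of 23758 genes changed by 1 log2 unit, 197 were found by edgeR, beside 5 false calls, and 196 by DESeq2, beside 14. The changed genes were drawn from well-counted genes, and every gene had the common biological coefficient of variation, 16.83%. Ucp3, with 136 counts in all and a coefficient of 26.6%, lies outside this setting, so these rates do not hold for it.

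The members and gene lists were chosen with earlier results of these data known. Named genes are the members and Pde2a, the adenine nucleotide and phosphate carriers and nearest relatives, up to 4 further carriers that rose and 4 that fell most with a mean of at least 1 CPM, up to 8 protein-coding genes within 1 Mb with the lowest p, genes beside Ucp2 and Ucp3, the 2 largest changes past the threshold per list, and the 5 patterns most like Ucp2. All regulators and PPAR targets that passed are also named. Single results for some genes under this rule are not reported here. Alternatives were DESeq2 1.42.0, its size factors, filterByExpr, no filter, reads of both strands, replicate naming style or Xist as a covariate, and each heart left out. Their use on the counts of regulators and PPAR targets was added after the data were seen.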

Additional observations from a re-analysis of the deposited data

Results flagged for a closer look

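Of 80 groups of hearts examined, 4 held a heart far from the others, and chance flags about 1 group in 20. Ucp2 in Pde2A-/- heart B, at 276.0 CPM, lay above the 216.6 to 233.6 CPM of the other 4. The summed endothelial markers of the same heart, at 2247 CPM, lay above 1996 to 2059 CPM. The summed lymphoid markers of Pde2A+/+ heart 7, at 98.41 CPM, lay above 2.212 to 2.874 CPM in the other Pde2A+/+ hearts. Slc25a26 in Pde2A+/+ heart H, at 18.76 CPM, lay above 14.57 to 16.0 CPM.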

How the results depend on the processing

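The log2 fold change of Ucp2 kept its sign and moved by less than the pooled SD of its log2 CPM between hearts of a genotype, 0.109, under all 18 alternatives, and those of Ucp3 and Slc25a14 kept their sign and did not pass the threshold. Without single hearts the ranges were 1.08 to 1.18 for Ucp2, 0.23 to 0.60 for Ucp3, -0.05 to -0.0048 for Slc25a14 and -0.10 to -0.0032 for Slc25a27. Slc25a27 turned to 0.0315 with Xist as a covariate and Dnajb13 to 0.53 with reads of both strands, neither passing the threshold. The cause was not tested. Over all genes DESeq2 gave 2354 falls in place of 1372, and leaving out single hearts gave 1288 to 2887 rises and 414 to 2165 falls. Falls among the other carriers numbered 9 with DESeq2, 8 with filterByExpr, 2 without a filter and 1 to 9 without single hearts, and rises 4 to 7. Within 1 Mb of Ucp2 there were 8 to 10 rises and 3 to 4 falls without single hearts. Rises among the PPAR targets numbered 4 with DESeq2 and 5 with Xist as a covariate, in place of 2. Over the 6 Pde2A+/+ hearts the correlations of Ucp2 with marker lists kept their sign with summed CPM and none passed after adjustment, but without the 2 farthest hearts the erythroid r turned from 0.492 to -0.221 (the cause was not tested). No paired analysis was possible because the genotypes share no replicate name. Depth limits Ucp1 and Ucp3, with at most 1 and 22 counts per heart.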
